A study of Mus musculus with 6 samples.

Results

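Solute carriers are the membrane proteins whose gene symbols begin with Slc and a number, and 163 probe sets naming 113 such genes were compared between a jaw muscle and a leg muscle of the mouse. A probe set is the group of short array probes that reads 1 transcript. Members had to carry a single gene symbol of this form in the platform annotation and a mean signal of at least 60 over all 6 arrays. At any signal the array held 417 such probe sets for 261 genes, so 254 were too dim to be members. The choice used the mean level and not the difference between the muscles. Around the limit, Slc44a2 (1438860_a_at) and Slc6a9 (1431812_a_at) lay just outside with mean signals of 57.0 and 58.5, and Slc25a44 (1433448_at) and Slc39a3 (1417881_at) just inside with 60.2 and 60.4. All 163 members also passed the filter on low values, set at a signal of 28.6, and 21 had a group mean under 60 in 1 muscle only. The symbols Slc9a3r1, Slc9a3r2 and Slc4a1ap fit the rule although their products bind carriers and carry no solute themselves. They are kept apart as 8 probe sets of adaptors.

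The tissues were superficial masseter, which closes the jaw, and tibialis anterior, which lifts the foot, of normal female C57Bl/6 mice aged 6 months. Each muscle was represented by 3 samples, numbered 1 to 3 and hybridised to 1 array each. No treatment or transgene is named in the labels. No label states that the 3 samples were taken from different animals, so the p-values measure only the spread between these samples, which may be technical.

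Muscle fibres depend on carriers for nearly everything that crosses their membranes. Insulin and contraction bring the glucose carrier GLUT4 (Slc2a4) to the surface, monocarboxylate carriers pass lactate and pyruvate together with a proton, and sodium-coupled carriers take up amino acids, creatine, carnitine and phosphate. Inside the cell, the Slc25 family links the cytosol with the mitochondrial matrix by exchanging ADP for ATP and moving phosphate, dicarboxylates, amino acids and iron. Fast glycolytic fibres are known for the lactate exporter MCT4 (Slc16a3), and oxidative fibres for MCT1 (Slc16a1), which also takes lactate up.

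Every array had a 2% trimmed mean signal of 150.1, and the brightest probe set per array read 18461 to 22667. Markers of skeletal muscle were bright on all arrays. The mean log2 signal of the 6-gene list was 13.63, 13.82 and 13.93 in the masseter. In the tibialis anterior it was 14.16, 14.12 and 14.13, and 1 of the 6 genes passed the test with this muscle higher. Myh4 read 5649, 7072 and 8100 against 20228, 17512.5 and 19398. Pvalb also did not overlap, while Acta1, Ckm, Myh1 and Tnnt3 did. The part of these markers in the carrier values was not tested. Salivary gland markers were uneven. The mean log2 signal of the 9 genes read was 10.57 in masseter 1, 6.55 in masseter 2 and 5.13 in masseter 3. In the tibialis anterior it was 6.37, 5.3 and 4.09 in the same order, so masseter 1 stands apart. Of the 6 salivary genes kept, 3 passed the test with the masseter higher. Smr2, also of this list, was instead lowest in masseter 1, at 1010, 1185 and 2123 against 2548, 2063 and 1848.5. Of the 24 member probe sets with a difference of at least 0.5 on the log2 scale, 3 moved by over 1.5 times in a fit without masseter 1 (of Slc4a4, Slc31a2 and Slc16a11), and 0 changed sign. Of all 163 members, most of them with small differences, 88 moved by that much or changed sign. Values without masseter 1 are given for those 3 and for some of the smaller differences. For Gapdh, the ratio between the 3' and 5' control probe sets ran from 2.46 to 2.92 in the masseter and from 1.87 to 2.07 in the tibialis anterior. For Actb the ratios overlapped, at 2.82, 2.71 and 3.34 against 2.71, 2.59 and 2.79. The part of these ratios in the results was not tested. In whole muscle, fewer cells of a type and less transcript per cell cannot be told apart.

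Differences are given as log2 masseter minus tibialis anterior with the standard error (SE) of limma, a linear model fitted to all 13576 probe sets kept, with the sample number as a block, and Benjamini-Hochberg adjusted p. There were 3 arrays per muscle throughout. Means of a muscle are geometric. A call means an adjusted p under 0.05. Of the 163 member probe sets, 1 was called, higher in the masseter, and 0 were called higher in the tibialis anterior. That is 0.613% of the members, beside 1.18% of all probe sets kept (0.56% with the masseter higher, 0.619% with the tibialis anterior higher). At an unadjusted p under 0.05 there were 22 members, 13.5%, beside a background of 13.1%. The masseter was higher in 13 of them, against a background of 6.93%, and the tibialis anterior in 9, against 6.12%. The groups did not overlap for 31 members, with the masseter higher for 18 and the tibialis anterior higher for 13. This is 19% of the members, beside 17.8% of all probe sets kept. The shares of members under all of these rules lay near the background or below it.

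For most members the difference was small, about as for all probe sets kept. The difference was positive for 86 members (52.8%), beside 52.9% of all probe sets kept. The median difference was 0.02 over the members and 0.02 over all probe sets kept, and 139 of the 163 members (85.3%) differed by less than 0.5 on the log2 scale, beside 83% of all probe sets kept. Only Slc20a2, Slc16a3 and Slc11a1, read by 1 probe set each in this count, reached a 2-fold difference, which is 1.84% of the members beside 3.3% of all probe sets kept. The SE of a member ranged from 0.11 to 0.68, with a median of 0.22. In simulated data for this comparison on 13576 probe sets, the procedure recovered 42% of 50 probe sets changed 2-fold and 90% of 50 changed 4-fold. A 2-fold difference in a carrier could therefore go without a call. Of 50 probe sets changed 1.5-fold it recovered 10%. Of the 119 probe sets called in the simulated data, 10 had not been changed.

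**Figure D1:**
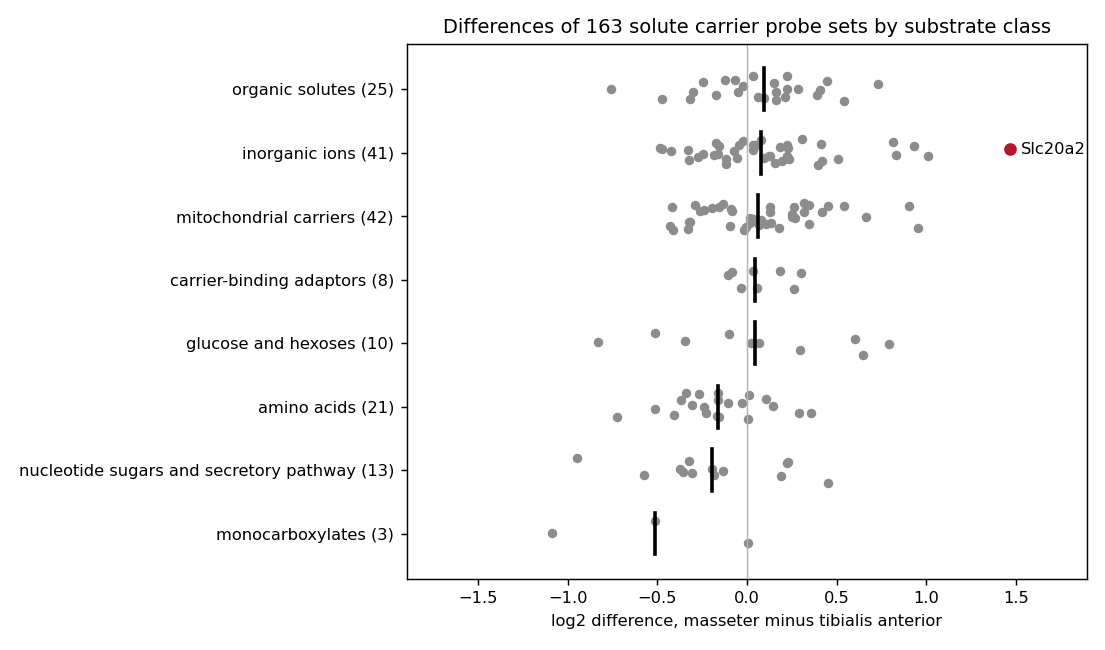
Log2 differences between masseter and tibialis anterior for the 163 solute carrier probe sets, 1 point each, in rows by substrate class with the number of probe sets in brackets; black bars mark class medians and points are spread vertically for clarity. The red point, Slc20a2 at 1.47, is the 1 member with an adjusted p under 0.05, and the class medians lie between -0.52 and 0.10.

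Inorganic ions, including metals, were the substrate of 41 member probe sets of 30 genes, and the 1 called carrier belongs here. Slc20a2 encodes PIT2, a sodium-coupled importer of inorganic phosphate found in many tissues. Its brighter probe set (1434235_at) had signals of 1501, 1441 and 1438 on the masseter arrays, in the order of the sample numbers kept throughout, and 514, 522 and 550.1 on the tibialis anterior arrays. The 3 masseter arrays thus lie close together and above all tibialis arrays, with SDs of the log2 signal of 0.035 (masseter) and 0.051 (tibialis anterior). The masseter mean of 1459.7 was 2.76-fold the tibialis mean of 529 (1.47 ± 0.14, limma adjusted p = 0.00259), and the numbered pairs differed by 1.54, 1.47 and 1.39. The difference was 1.45 without masseter 1 (adjusted p = 0.00294) and 1.46 in an unpaired fit with the salivary signal as a covariate (adjusted p = 0.00327). The call ended in 1 of 16 alternatives, eBayes without an intensity trend, where the adjusted p was 0.135 and 13 of all probe sets passed. In the other 15 the adjusted p ranged from 0.000705 to 0.00697.

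A dimmer probe set of Slc20a2 (1451768_a_at) pointed the same way but did not pass. It read 152, 148 and 215 in the masseter against 109, 49.3 and 129 in the tibialis anterior, without overlap (0.93 ± 0.25, adjusted p = 0.144). The tibialis arrays of this probe set differed among themselves by more than the muscles' means, with tibialis anterior 2 lowest. Slc20a1 encodes PIT1, the other phosphate importer of the family. Its signals were 74.2, 71.7 and 60.9 in the masseter and 122, 105 and 67.6 in the tibialis anterior, and the groups overlapped (-0.47 ± 0.23, adjusted p = 0.434). Whether Slc20a2 and Slc20a1 differ from each other in their muscle difference was not tested. The mitochondrial phosphate carrier, Slc25a3, had means of 11752 and 12884 (-0.13 ± 0.11, adjusted p = 0.669; 95% interval -0.38 to 0.11).

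**Figure D2:**
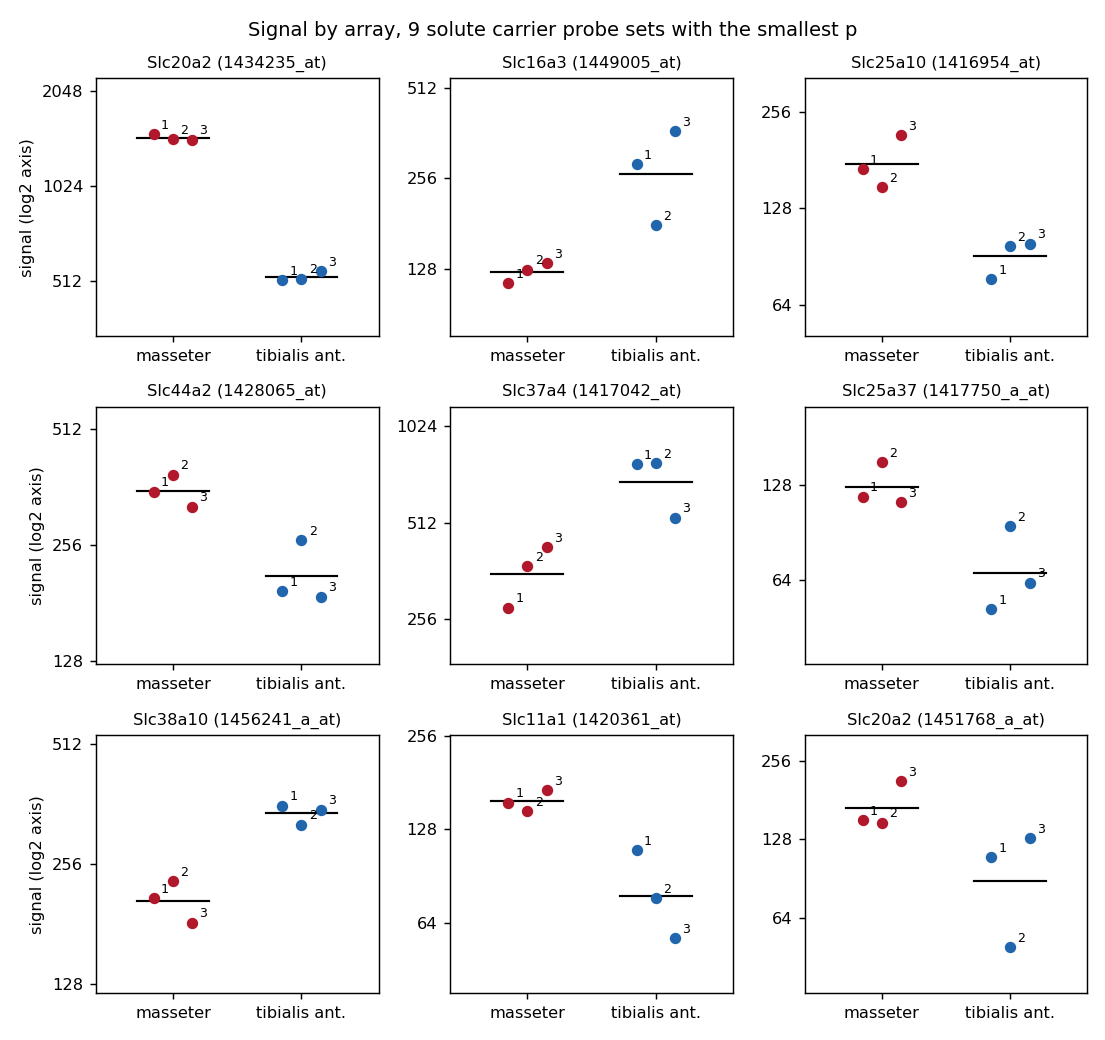
Signal on each array (log2 axis, own range in each panel) for the 9 member probe sets with the smallest p; red points are masseter arrays and blue points tibialis anterior arrays, numbered by sample, and black lines are geometric means. The 2 groups do not overlap in any of the 9 panels, and the replicates are tightest for Slc20a2 (1434235_at), at 1438 to 1501 against 514 to 550.1.

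Among carriers of iron and copper, 0 probe sets passed. Slc11a1, a divalent metal exporter of the phagosomes of macrophages, had signals of 156, 146 and 171 in the masseter and 109, 76.7 and 57.1 in the tibialis anterior (1.01 ± 0.24, adjusted p = 0.111). These groups did not overlap. Summed signals of the 5 immune markers ran from 608.4 to 930.7 in the masseter and from 509.1 to 796.6 in the tibialis anterior, and 0 of the 5 passed. Among them Csf1r, a receptor of macrophages, was higher in the masseter in each numbered pair, at 273.5, 316 and 180.2 against 176, 246 and 134. Its groups overlapped, and for Ptprc, Cd68, Cd74 and Lyz2 the numbered pairs went in both directions. The part of immune cells in the Slc11a1 value was not tested. Slc40a1, ferroportin, which exports iron from cells, read 434, 247 and 205 in the masseter and 538, 404 and 276 in the tibialis anterior (1417061_at; -0.48 ± 0.16, adjusted p = 0.25). In both muscles sample 1 was highest and sample 3 lowest, so the groups overlap while every numbered pair differs in 1 direction. The difference was -0.80 without masseter 1 (adjusted p = 0.296), -0.98 with the salivary covariate (adjusted p = 0.0834), -0.26 without masseter 3 and -0.25 without tibialis anterior 1, so single arrays move it by over 1.5 times. The divalent metal importer Slc11a2 (DMT1) had 3 probe sets, at -0.43, -0.12 and 0.22, all with overlap. Slc31a1, the high-affinity copper importer, read 104, 101 and 90.2 against 70.6, 73.8 and 76.8 (0.41 ± 0.21, adjusted p = 0.472), with no overlap. Its relative Slc31a2 read 153, 72.8 and 97.7 against 51.6, 54.8 and 68.2 (1416654_at; 0.83 ± 0.28, adjusted p = 0.253), again with no overlap and with masseter 1 highest. Without masseter 1 the difference was 0.55 (adjusted p = 0.526). Its second probe set differed by 0.20 ± 0.38, with the groups overlapping.

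Carriers of sodium, chloride, bicarbonate, calcium, zinc and magnesium did not pass in either direction. Slc12a2 encodes NKCC1, a sodium-potassium-chloride cotransporter that is abundant in secretory glands and also present in muscle. Its brightest probe set read 1211, 961 and 1075 in the masseter and 816, 1104 and 737 in the tibialis anterior (0.30 ± 0.18, adjusted p = 0.546), and its other probe sets differed by 0.40 and 0.10. A dimmer one (1417623_at) was lowest in masseter 1, at 123, the array with the highest salivary markers, against 338 and 298 in masseter 2 and 3. Its difference of 0.40 became 0.85 without masseter 1 (adjusted p = 0.218) and -0.02 without replicate 3. Slc8b1, which exchanges calcium for sodium across the inner mitochondrial membrane, had signals of 96.3, 79.6 and 65.9 against 32.8, 47.8 and 58.9 (0.82 ± 0.32, adjusted p = 0.323). The bicarbonate exchanger Slc4a2 also had no overlap, with the masseter higher (0.42 ± 0.24, adjusted p = 0.531). The sodium bicarbonate cotransporter Slc4a4 varied widely within each muscle, and its probe sets differed by 0.51 ± 0.37 and 0.03 ± 0.42. Without masseter 1 these were 0.95 (adjusted p = 0.174) and 0.33, and without replicate 3 they were 0.07 and -0.57. The zinc carrier Slc30a9 was the 1 ion carrier with all tibialis arrays above all masseter arrays, at 424, 506 and 435 against 378, 409 and 341 (-0.28 ± 0.15, adjusted p = 0.501). For the potassium-chloride cotransporter Slc12a7 and the magnesium carrier Slc41a3 the differences lay between -0.18 and -0.06. Another magnesium carrier, Slc41a1, was highest in sample 2 of both muscles, at 365, 509.8 and 337 against 347, 481 and 271 (0.16 ± 0.16, adjusted p = 0.741). The zinc carriers of the secretory pathway Slc30a5 and Slc39a7 differed by 0.19 ± 0.17 and 0.12 ± 0.20. Slc39a14, which imports zinc and iron, had 1 probe set at 0.05 ± 0.22 and 1 at -0.33 ± 0.46, which was 0.03 without masseter 1. In all, the ion class had 24 probe sets with a positive difference and 17 with a negative one, a median of 0.08, and 7 without overlap with the masseter higher against 1 with the tibialis anterior higher. Over all probe sets kept, 9.21% did not overlap with the masseter higher and 8.63% with the tibialis anterior higher. The class was not tested against these shares. Among the 7 are probe sets of Slc31a2, Slc8b1 and Slc4a2 with tibialis means of 57.8, 45.2 and 58.0. These means lay under 60, so those probe sets reached the member limit through the masseter.

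Glucose and other hexoses were the substrate of 10 member probe sets of 6 genes, and 0 passed. Slc2a4, the insulin-responsive GLUT4 of muscle and fat, had signals of 1841, 2209 and 2029 in the masseter and 2347, 1386 and 2208 in the tibialis anterior (1415958_at). The tibialis arrays span the masseter arrays entirely. The difference was 0.07 ± 0.20 (adjusted p = 0.926), with a 95% interval from -0.38 to 0.52. A second Slc2a4 probe set differed by 0.03 ± 0.15, with an interval from -0.32 to 0.37.

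The other facilitative glucose carriers of this class were dim, and their probe sets pointed in different directions by gene. Slc2a1, the widespread basal carrier GLUT1, had 3 member probe sets, at -0.83 ± 0.28, -0.51 ± 0.29 and -0.34 ± 0.20 (adjusted p = 0.242, 0.515 and 0.54). The first of these (1426600_at) read 41.3, 57.8 and 36.3 in the masseter and 98.9, 95.5 and 51.6 in the tibialis anterior, so the groups overlap through tibialis anterior 3. Its masseter mean of 44.3 lay under 60, so this probe set reached the member limit through the tibialis anterior. Slc2a3, the high-affinity GLUT3 known from neurons and some blood cells, had 2 member probe sets, at 0.79 ± 0.28 and 0.65 ± 0.25 (adjusted p = 0.268 and 0.327). In both, every masseter array was above every tibialis array, with 81.7, 84.7 and 78.0 against 68.4, 40.7 and 37.5 in the first. The tibialis means of 47.1 and 54.6 lay under 60, so both probe sets reached the member limit through the masseter. Summed signals of the 3 Schwann cell and nerve markers read were 912.2 to 976.8 in the masseter and 531.2 to 644.4 in the tibialis anterior, and 0 of the 2 kept passed. The sum is mostly Pmp22 and Mbp, of myelin. The mean log2 signal of the list overlapped between the muscles, at 5.97, 7.43 and 7.39 against 7.12, 6.05 and 6.2, and the axonal Nefl was low on all arrays, at 1.1 to 28.7. Their part in the Slc2a3 values was not tested. Slc2a8, an intracellular hexose carrier, differed by 0.60 ± 0.28 with overlapping groups. Slc5a2, the sodium-coupled SGLT2 of the kidney, read 95.6, 87.6 and 131 against 84.9, 83.3 and 83.8, with every masseter array higher (0.30 ± 0.22, adjusted p = 0.638). Slc50a1 differed by -0.10 ± 0.24.

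The monocarboxylate carriers were read by 3 member probe sets of 3 genes, and 0 passed. Slc16a3, the lactate exporter MCT4 of glycolytic fibres, had the most negative difference of all members. Its signals were 115, 127 and 134 in the masseter and 285, 179 and 366 in the tibialis anterior. All tibialis arrays were above all masseter arrays, though the tibialis arrays themselves differed by about as much as the means of the muscles. The mean was 2.12-fold higher in the tibialis anterior (-1.09 ± 0.23, adjusted p = 0.0724). The value passed in 2 of 16 alternatives, both of which leave out tibialis anterior 2, at -1.38 without replicate 2 (adjusted p = 0.0278) and at -1.37 without that array alone (adjusted p = 0.0288). Over all alternatives its adjusted p ranged from 0.0278 to 0.284. Slc16a3 remained at -1.02 without masseter 1 (adjusted p = 0.2).

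Slc16a1, which encodes MCT1, did not follow Slc16a3. It read 696, 849 and 644 in the masseter and 852, 645 and 683 in the tibialis anterior, with means of 724 and 721 (0.01 ± 0.17, adjusted p = 0.992; 95% interval -0.38 to 0.40). Whether the muscle difference of Slc16a3 is unlike that of Slc16a1 was not tested. Slc16a11, a monocarboxylate carrier whose role is less settled, read 37.5, 82.5 and 92.1 against 106, 84.8 and 92.5 (-0.52 ± 0.32, adjusted p = 0.568). Masseter 1 was its lowest array, and without it the difference was -0.11.

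**Figure D3:**
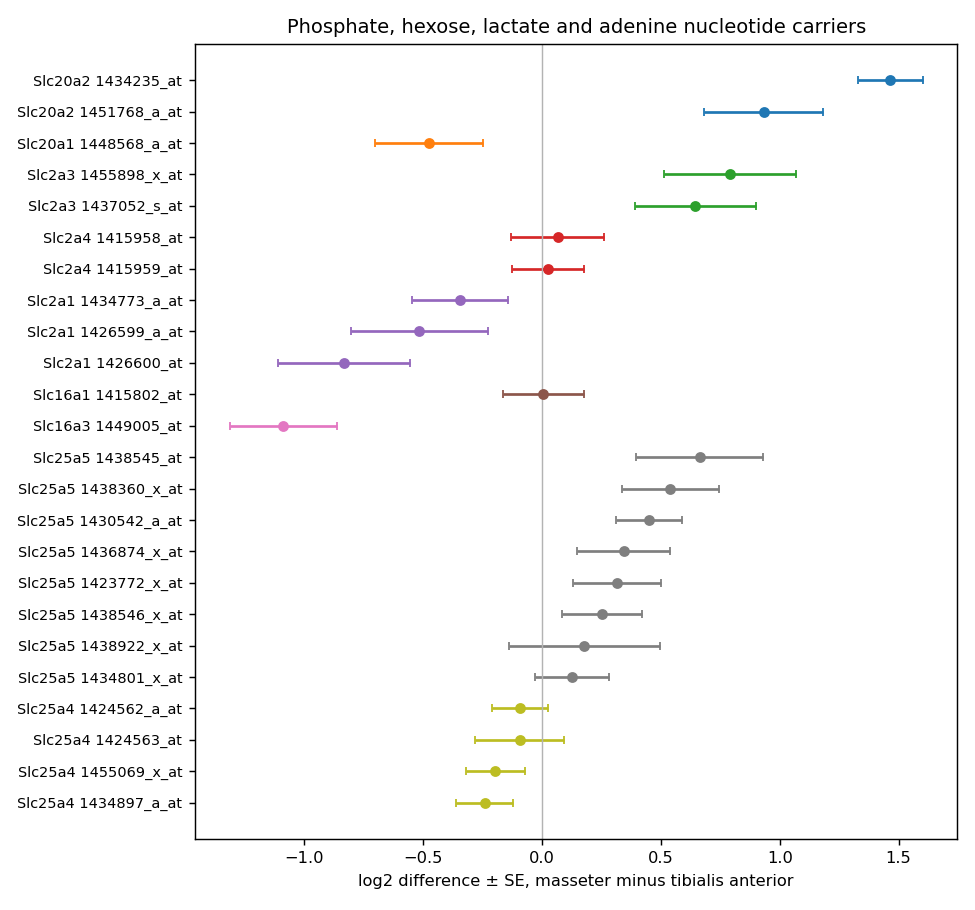
Log2 difference (masseter minus tibialis anterior) with its SE for every member probe set of the phosphate importers Slc20a2 and Slc20a1, the hexose carriers Slc2a3, Slc2a4 and Slc2a1, the lactate carriers Slc16a1 and Slc16a3 and the ADP/ATP carriers Slc25a5 and Slc25a4; colours separate genes. All 8 Slc25a5 probe sets lie above 0 (6 of 8 without masseter 1) and all 4 Slc25a4 probe sets below 0, and among the probe sets drawn 1434235_at of Slc20a2 is the 1 that passed.

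Mitochondrial carriers of the Slc25 family made up 42 member probe sets of 23 genes, and 0 passed. The 2 ADP/ATP carriers exchange cytosolic ADP for ATP made in the matrix. Slc25a4 (ANT1), the form of heart and skeletal muscle, had signals of 14065, 15832 and 18061 in the masseter and 17646, 16325 and 16904 in the tibialis anterior (1424562_a_at; -0.09 ± 0.12, adjusted p = 0.813). At this level the array was near the top of its scale, where a difference can be understated. A probe set read farther from the top (1434897_a_at) had 5189, 5463 and 6078 against 6886, 6373 and 6461, with no overlap (-0.24 ± 0.12, adjusted p = 0.449). All 4 Slc25a4 probe sets had negative differences, from -0.24 to -0.09.

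Slc25a5 (ANT2), the form of many proliferating and non-muscle cells, had 8 member probe sets with positive differences, from 0.13 to 0.66. The one with the smallest p (1430542_a_at) read 1467, 992 and 1227 in the masseter and 944, 767 and 963 in the tibialis anterior. Its groups did not overlap (0.45 ± 0.14, adjusted p = 0.204). Masseter 1 was the highest array of 7 of the 8 probe sets. Without masseter 1 the 8 differences ran from -0.16 to 0.53, 6 of them positive, and that of 1430542_a_at was 0.32 (adjusted p = 0.569). Probe sets of 1 gene share its transcript and are not replicates, and 6 of these 8 end in _x_at, the array maker's mark for probes that can also match other transcripts. The opposite signs of the 2 genes are a description, since neither passed and their difference was not tested.

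The members of this class with the smallest p were a carrier of dicarboxylates and a carrier of iron. Slc25a10, the dicarboxylate carrier, which exchanges malate and succinate for phosphate, had signals of 170, 149 and 216 in the masseter and 77.1, 97.8 and 99.4 in the tibialis anterior (0.96 ± 0.20, adjusted p = 0.0771). The masseter arrays were all higher, and the mean was 1.94-fold higher. It did not pass in any of the 16 alternatives. Slc25a10 is also abundant in fat, and the summed signals of the 5 adipocyte markers read overlapped between the muscles, at 4191.1 to 6036.5 and 3009 to 5017.6. Most of that sum is Fabp4. Averaged on the log2 scale, the list was higher in the masseter in each numbered pair, at 7.8, 6.78 and 7.28 against 7.11, 6.24 and 6.04. Adipoq, which encodes the fat hormone adiponectin, read 632, 236 and 246 against 227, 109.4 and 106.5, and Cidec, a lipid droplet protein, 102, 46.5 and 46.1 against 37, 19.6 and 26, both without overlap. Retn overlapped, though the masseter was higher in each numbered pair. Fabp4 and Lep overlapped and went the other way in at least 1 pair. Fabp4 read 5106.5, 3791 and 4285 against 3514, 2772 and 4826. Lep, which enters the log2 average, read 8.9, 3.4 and 17.7 against 15.1, 4 and 1.6, under the filter level on all 6 arrays. Of the 4 adipocyte genes kept, 1 passed with the masseter higher, and their part in the Slc25a10 value was not tested. Slc25a37, mitoferrin 1, brings iron into mitochondria and is abundant in red cell precursors. It read 118, 151 and 113 against 51.7, 94.6 and 62.7, again without overlap (0.90 ± 0.21, adjusted p = 0.107). Of the 3 erythroid markers read, Hba-a1 and Slc4a1 lay under the filter level on all 6 arrays. Alas2, the erythroid enzyme of haem synthesis, read 196, 210 and 191 in the masseter and 139, 122 and 100.3 in the tibialis anterior. The summed signal of the list was 222.9 to 246.2 in the masseter and 128.4 to 164 in the tibialis anterior, and its part in the Slc25a37 value was not tested. Slc25a28, mitoferrin 2, the iron importer of non-erythroid cells, read 379, 292 and 188 against 323, 314 and 408 (-0.33 ± 0.25, adjusted p = 0.651), with overlap.

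Other mitochondrial carriers differed by less than 0.5 in size. Slc25a11, the oxoglutarate carrier of the malate-aspartate shuttle, had means of 1164 and 1179 (-0.02 ± 0.13, adjusted p = 0.971; 95% interval -0.32 to 0.28). Slc25a38, a glycine carrier used in haem synthesis, had no overlap with the masseter higher (0.32 ± 0.20, adjusted p = 0.579), and the same holds for Slc25a47 (0.35 ± 0.24, adjusted p = 0.607). The probe sets of Slc25a46, an outer membrane protein of the family, disagreed in sign, at -0.32 ± 0.14 and 0.11 ± 0.14. The first had no overlap with the tibialis anterior higher, and the second overlapped. Slc25a29, a carrier of basic amino acids, had 4 probe sets with differences from -0.43 to 0.08. Slc25a51, which brings NAD into the matrix, differed by -0.01 ± 0.16 and 0.13 ± 0.17, and the 3 probe sets of Slc25a39, a glutathione carrier, by 0.03 to 0.27. Slc25a33, a pyrimidine nucleotide carrier, read 226, 303 and 225 against 224, 422 and 383 (-0.41 ± 0.19, adjusted p = 0.423). Over the class, 25 differences were positive and 17 negative, with a median of 0.06, and 38 of 42 were under 0.5 in size.

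Amino acid and peptide carriers had 21 member probe sets of 16 genes, and 0 passed. Slc38a10, a member of the sodium-coupled neutral amino acid family whose transport role is less settled, was read by 3 probe sets. The brightest (1456241_a_at) had 210, 232 and 183 in the masseter and 358, 321 and 350.2 in the tibialis anterior, with no overlap (-0.73 ± 0.17, adjusted p = 0.107). The others differed by -0.51 ± 0.21, again with no overlap, and by -0.23 ± 0.30, with overlap. Slc38a2, the SNAT2 carrier that responds to amino acid supply, read 1053, 1063 and 1207 in the masseter and 1092, 574 and 1180 in the tibialis anterior, with tibialis anterior 2 alone low (0.29 ± 0.20, adjusted p = 0.608). Slc1a5, which exchanges glutamine and other neutral amino acids, differed by 0.36 ± 0.20 (adjusted p = 0.507). Slc3a2, the heavy chain that several amino acid exchangers need to reach the membrane, differed by -0.16 ± 0.23, and the glutamine carrier Slc38a3 by -0.24 ± 0.17. Slc6a6, the taurine carrier, differed by 0.01 ± 0.20 with a 95% interval from -0.46 to 0.48. Cationic amino acids are carried by Slc7a2 and, in exchange, by Slc7a6, and these differed by -0.30 ± 0.40 and, over a pair of probe sets, by -0.27 and -0.16. Slc38a4, another system A carrier, differed by -0.16 and 0.00, and Slc66a2 by -0.41 and -0.37, all with overlap. The class had 6 positive and 15 negative differences and a median of -0.16.

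Carriers of nucleotide sugars and of the secretory pathway, which feed the endoplasmic reticulum and Golgi, had 13 member probe sets of 11 genes, and 0 passed. Slc37a4 moves glucose 6-phosphate into the endoplasmic reticulum. It read 278, 374 and 429 in the masseter and 777, 782 and 529.6 in the tibialis anterior, with all tibialis arrays higher (-0.95 ± 0.22, adjusted p = 0.104). The value passed in 1 of 16 alternatives, at -1.27 without replicate 3 (adjusted p = 0.0248), and its adjusted p ranged up to 0.351 over the others. Slc35b1, which brings ATP into the endoplasmic reticulum, had 466, 414 and 437 against 566, 479 and 654 (-0.36 ± 0.15, adjusted p = 0.38). Slc35a4 differed by -0.31 ± 0.17 at its brightest probe set, and Slc35a2, the UDP-galactose carrier of the Golgi, by -0.37 ± 0.21. Both probe sets of Slc35e1, at -0.57 and -0.32, also had every tibialis array above every masseter array. Without overlap and with the tibialis anterior higher there were 6 of 13 probe sets, of 5 genes, and 0 with the masseter higher. The background for that rule was 8.63%, and the class was not tested against it. Slc35b3 had the most positive difference of the class (0.45 ± 0.33, adjusted p = 0.631). Slc35a1, the CMP-sialic acid carrier of the Golgi, differed by -0.20 ± 0.18, and the median of the class was -0.20.

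Organic solutes other than these covered 25 member probe sets of 21 genes, and 0 passed. Slc44a2, a choline carrier-like protein, had signals of 352, 389 and 321 in the masseter and 194, 264 and 188 in the tibialis anterior (1428065_at; 0.73 ± 0.16, adjusted p = 0.0931). A brighter probe set of it (1438559_x_at) also did not overlap but differed less, at 0.21 ± 0.13, with 1666, 1421 and 1618 against 1381, 1373 and 1292. Slc19a2, which imports thiamine, read 108, 140 and 88.4 against 194, 162 and 206, with all tibialis arrays higher (-0.76 ± 0.23, adjusted p = 0.201). Slc29a1, the equilibrative nucleoside carrier ENT1, read 109.7, 113 and 111 against 87.9, 73.8 and 91.2 (0.41 ± 0.20, adjusted p = 0.457), with no overlap. Slc44a1, a choline carrier, differed by 0.10 and 0.16, and Slc48a1, which carries haem out of lysosomes, by 0.16 and 0.22. The least precise member was the folate carrier Slc19a1, at 19.6, 110.5 and 79.4 against 138, 79.9 and 29.3 (-0.30 ± 0.68), and without masseter 1 its difference was 0.45.

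Carriers in this class that supply the energy metabolism of the fibre did not pass. Slc6a8, which imports creatine, had signals of 696, 427 and 524 in the masseter and 658, 499 and 442 in the tibialis anterior (0.03 ± 0.16, adjusted p = 0.954; 95% interval -0.33 to 0.40). Slc22a5, the carnitine importer OCTN2, differed by 0.06 ± 0.18 with an interval from -0.35 to 0.48. The fatty acid transport proteins Slc27a1 and Slc27a4 differed by 0.23 ± 0.20 and 0.39 ± 0.27 (adjusted p = 0.715 and 0.614). Their 95% intervals ran from -0.24 to 0.69 and from -0.24 to 1.02. Slc43a3, a purine base carrier, differed by 0.28 ± 0.18, and Slc47a1, which exports organic cations, by -0.12 ± 0.17. The adaptor proteins Slc9a3r1, Slc9a3r2 and Slc4a1ap had 8 probe sets with differences from -0.10 to 0.30, and 0 passed.

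Where several probe sets read 1 gene, they often but not always pointed the same way. Of 32 genes with at least 2 member probe sets, 21 had 1 sign in all of them and 11 had both signs. Those with 1 sign include Slc20a2, Slc2a1, Slc2a3, Slc25a4, Slc25a5 and Slc38a10, and those with both include Slc25a46, Slc25a29 and Slc39a14. Of the 163 members, 19 end in _x_at. Signs of the class medians were the same after quantile normalization between arrays except for the adaptors, where the median of 0.05 became -0.003. The other 70 carrier probe sets that passed the filter on low values but lay under a mean signal of 60 had 0 calls by limma, and 2 had an unadjusted p under 0.05. Genes looked for by name but without a member probe set included Slc2a12, Slc16a7, Slc16a10, Slc7a5, Slc7a8, Slc8a1, Slc8a3, Slc25a12 and Slc25a13.

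Genes that work beside the carriers were taken from a list of 42, of which 34 were read by a probe set kept. Of these, 0 were called higher in the masseter, 1 was called higher in the tibialis anterior and 33 did not pass. The median was -0.18 over these genes and 0.02 over all probe sets kept. The called gene was Tbc1d1, a Rab GTPase-activating protein that holds GLUT4 vesicles inside the cell. It read 107, 176 and 178 in the masseter and 333, 339.5 and 614 in the tibialis anterior (-1.46 ± 0.20, adjusted p = 0.0177). Among 16 alternatives it passed in 7, with adjusted p from 0.0055 to 0.194 over all of them. It did not pass without masseter 1 (-1.22, adjusted p = 0.108), without tibialis anterior 3 (-1.17, adjusted p = 0.122) or with eBayes without trend (adjusted p = 0.194). Nor did it pass without replicate 3, without any of the other 4 single arrays or with the salivary covariate, at adjusted p from 0.0599 to 0.114.

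Other genes of insulin signalling and of lactate handling differed without passing. Irs1, a docking protein of the insulin receptor, read 513, 357 and 483 in the masseter and 1124, 805 and 688 in the tibialis anterior (-0.94 ± 0.18, adjusted p = 0.0516). Akt2, the kinase that drives GLUT4 to the membrane, read 819.6, 777 and 929 against 509.7, 567 and 389.7 (0.80 ± 0.18, adjusted p = 0.0968). Ldha, the lactate dehydrogenase chain of glycolytic muscle, had 7606, 9355 and 11013 against 16501, 14307 and 13826 (-0.69 ± 0.15, adjusted p = 0.0941). Bsg, basigin, the chaperone that brings MCT1 and MCT4 to the membrane, had 582, 556 and 449.9 against 779, 799.5 and 779 (-0.58 ± 0.15, adjusted p = 0.134). Ldhb, the other main lactate dehydrogenase chain, differed by -0.31 ± 0.15 (adjusted p = 0.435), with no overlap. Emb, embigin, another chaperone of monocarboxylate carriers, differed by -1.15 ± 0.56 (adjusted p = 0.435) with overlap and with masseter 2 far below the rest, and Mpc1, of the mitochondrial pyruvate carrier, by -0.21 ± 0.14 (adjusted p = 0.577) with overlap. Ucp3, a mitochondrial uncoupling protein of muscle related to the Slc25 carriers, differed by -0.92 ± 0.19 (adjusted p = 0.0707). Of the 34 genes read in this list, the groups did not overlap for 5 with the masseter higher and for 11 with the tibialis anterior higher. The backgrounds were 9.21% and 8.63%, and the list was not tested against them. The 5 were Akt2, Ppargc1a (0.75 ± 0.24, adjusted p = 0.225), Glul (0.61 ± 0.17, adjusted p = 0.152), Stxbp3 (0.32 ± 0.19, adjusted p = 0.551) and Stx4a (0.20 ± 0.18, adjusted p = 0.7).

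**Figure D4:**
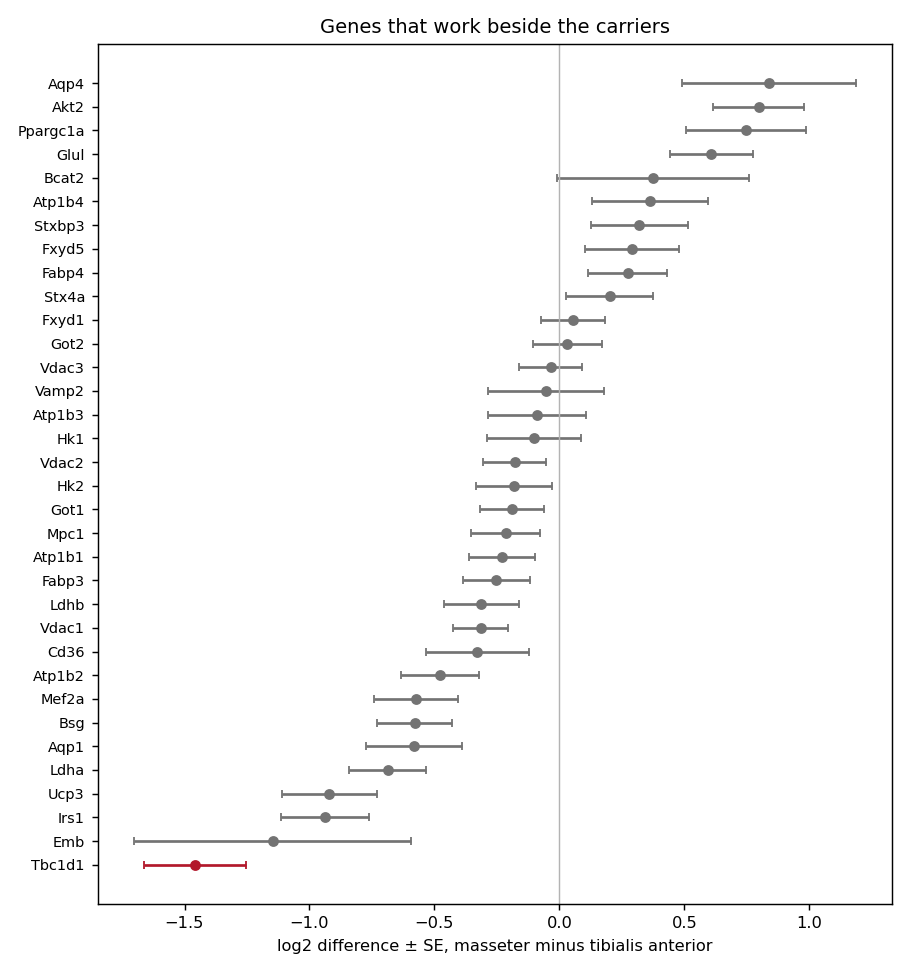
Log2 difference (masseter minus tibialis anterior) with its SE for the 34 genes read that work beside the carriers, each by its brightest probe set and ordered by difference. Tbc1d1, in red at -1.46, is the 1 gene with an adjusted p under 0.05.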

How the data were processed

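Total RNA from 3 samples each of masseter and tibialis anterior was amplified, biotin-labelled and hybridised to Affymetrix arrays, per the labels' protocols. The authors deposited a linear signal intensity per probe set, for which MAS5 and GCOS are named in the submitters' processing notes. The sources used here give no version or setting, and no detection call was used. Since the trimmed means were equal, no rescaling was done.

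Of 22690 probe sets, 64 controls were dropped. Names came from the platform annotation, and the 163 member symbols matched a current gene table by gene ID, with 0 changed. Intensities under 1 were set to 1 and taken to log2. Probe sets were kept at or above the 40th percentile of mean log2 intensity, 4.84, a signal of 28.6. limma 3.58.1 in R 4.3.3 (lmFit, eBayes with trend, two-sided) used the sample number as a fixed block, because the design text speaks of paired comparisons. limma stands in for the SAM test named there. Depth has no meaning for arrays, and their number limits the precision.

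The member rule, substrate classes and lists were chosen with earlier results of these data known. The class of adaptors was set apart after the symbols were seen. Named were called members, the 3 brightest and the most extreme members of each class, 37 fixed genes (27 with a member), members next to the signal limit and called partner genes, and others are named after their values were seen. One carrier gene is not reported here. Alternatives covered the block, trend, filter, scaling, offset, salivary covariate, member limit and left-out samples. The fit was tested on simulated data.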

Additional observations from a re-analysis of the deposited data

How the results depend on the processing

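With 3 arrays per muscle, small differences in dim transcripts could not be resolved. The count over all 13576 probe sets, 160, was 13 with eBayes without trend and 75 with the salivary covariate in an unpaired fit. Leaving out samples gave 47 to 188. The count of carrier probe sets called higher in the masseter, 1, was 0 with eBayes without trend, where 18 members had an unadjusted p under 0.05 in limma, and 1 in every fit with samples left out (range 1 to 1). The count called higher in the tibialis anterior, 0, ranged from 0 to 1 over fits with samples left out: Slc16a3 passed without replicate 2 and without tibialis anterior 2, and Slc37a4 without replicate 3. With the member limit at a mean signal of 120, which 86 probe sets reached, the counts were 1 and 0. Without the replicate block the same carrier probe set was called (Slc20a2, 1.47 ± 0.12, limma adjusted p = 0.000705), and 138 probe sets passed in all. The labels do not say that a number marks 1 mouse. Deviations from the muscle means correlated at 0.039, 0.152 and 0.101 between samples of the same number, and masseter 1 correlated slightly more with tibialis anterior 2 (0.041) than with its own number, so the numbers are not shown to pair the samples. Of 1129 values of named genes under the alternatives, 3 newly passed, 10 no longer passed (1 for Slc20a2 and 9 for Tbc1d1) and 0 called values changed sign. A further 89 that passed in neither fit had the other sign.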

Other observations

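Some carriers varied more among the samples of 1 muscle than between the muscles. Among members with a mean signal of at least 120, chosen here after their values were seen, Slc25a36, which carries pyrimidine nucleotides into mitochondria, had the widest spread in the masseter. It read 643, 358 and 207 on masseter arrays 1 to 3 and 422, 214 and 221 on the tibialis arrays in the same order, so sample 1 was the highest of each muscle. The SD of its log2 signal was 0.82 for the masseter and 0.55 for the tibialis anterior (n = 3 each). Slc4a4, the sodium bicarbonate cotransporter, had the widest spread in the tibialis anterior, with 241, 101 and 94.3 there and 89.7, 123 and 223 in the masseter (1452071_at), an SD of 0.75 and 0.67. Slc25a25, a calcium-sensitive carrier of ATP-magnesium and phosphate, read 102, 100.2 and 202 in the tibialis anterior, where sample 3 was highest, and 126, 156 and 121 in the masseter. Over all members the median SD of log2 signal was 0.27 in each muscle. An SD over 0.5 was reached by 29 members in the masseter and by 23 in the tibialis anterior.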
